A study of Mus musculus with 12 samples.

Results

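Gene expression in the extensor digitorum longus (EDL), a hind-limb muscle made up mainly of fast glycolytic fibers, was compared by RNA-seq between trained mice labelled WT and trained mice labelled strNrip1-/-. The comparison, itself chosen with earlier results of these data known, used 6 of the 12 libraries of the series. These were 3 for each labelled genotype, taken by their labels. The other 6 libraries came from sedentary mice of the same genotypes and served to estimate the spread of each gene and to set the trained differences beside the sedentary ones. The study asked which genes change in muscle that lacks RIP140, the protein encoded by Nrip1, and how exercise training bears on them.

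The mice of both genotypes were male. The mice labelled WT were littermate controls without Cre. The mice labelled strNrip1-/- carried floxed Nrip1 alleles, made in C57BL/6J, and, from a Cre line given as C57BL/6JN, a transgene for Cre recombinase under the muscle creatine kinase promoter, which is active in heart and skeletal muscle fibers but not in the vessels, nerves and connective tissue of the same muscle. Training was voluntary wheel running that began at 8 weeks of age and lasted 8 weeks, and the RNA came from a cohort kept for this purpose. The labels do not say that each library is a separate animal, so p-values measure the spread between these libraries.

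RIP140 is a corepressor that binds nuclear receptors such as the estrogen-related receptors and PPARs and recruits enzymes that silence their target genes. Those receptors, with the coactivators of the PGC-1 family, drive genes of fatty acid oxidation, the TCA cycle and the respiratory chain, which are abundant in slow, fatigue-resistant fibers and sparse in fast glycolytic fibers. RIP140 is most abundant in glycolytic muscle, and endurance training is known to raise oxidative genes there.

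Expression was deposited as FPKM, fragments per kilobase of transcript scaled by depth. Differences are given on the log2(FPKM + 0.5) scale, labelled strNrip1-/- minus labelled WT, with the standard error (SE) of a limma fit across all 12744 genes tested, and every adjusted p is limma's with Benjamini-Hochberg correction over those genes. Calls required an adjusted p under 0.05 together with a fold change above 1.2. The 6 trained libraries corresponded to 25.7 to 29.5 M fragments, an estimate made from the steps between low FPKM values, so that 3 fragments on a 2 kb gene equaled 0.0509 to 0.0583 FPKM.

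The whole-gene value of the targeted gene went against the labels. Nrip1 (ENSMUSG00000048490, minus strand of chromosome 16, 76287400 to 76373827, GRCm38) was at 2.53, 4.76 and 3.56 FPKM in the libraries labelled WT and at 20.7, 14.9 and 16.6 FPKM in those labelled strNrip1-/-. Every library labelled strNrip1-/- was above every library labelled WT, and the difference was 2.14 ± 0.20 (SE, adjusted p = 2.085e-04). The floxed segment holds exon 4, from 76287400 to 76295015, with the start codon and the whole coding sequence. Of 8 annotated Nrip1 transcripts, 5 include sequence of that exon and 3 do not, and a value for the whole gene does not show which of them was read. The deposited table therefore does not show the deletion, and every direction below runs from libraries labelled WT to libraries labelled strNrip1-/-. Of the other genes within 2 Mb that were tested, Hspa13 was called lower (-0.52 ± 0.11, adjusted p = 0.0173), while Usp25, Btg3 and Gm49591 were not called. These neighbours were named by their position and outside the naming rule.

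The tissue matched its label. In the 6 trained libraries skeletal α-actin (Acta1) lay between 16212 and 25223 FPKM, muscle creatine kinase (Ckm) between 12618 and 15264 FPKM and the fast myosin Myh4 between 7045 and 10783 FPKM. The slow myosin Myh7 was at 1.14 to 5.74 FPKM in 5 of the libraries and at 50.0 FPKM in labelled WT trained replicate 2, which stood apart in slow-fiber genes. Mitochondrially encoded transcripts took 43.8% to 47.3% of the FPKM total in labelled WT trained and 43.7% to 45.7% in labelled strNrip1-/- trained. The first principal component of the 6 libraries, with 38.2% of the variance, held the labelled WT libraries at -22.3 to -6.30 and the labelled strNrip1-/- libraries at 11.6 to 14.6.

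There were 762 genes called between the trained groups, 5.98% of those tested. Of these, 409 (3.21% of the tested genes) were higher and 353 (2.77%) were lower in labelled strNrip1-/- trained. For all 762 the libraries of the groups did not overlap, but the same values had chosen these genes. Over all tested genes the libraries did not overlap for 13.9%, higher in labelled strNrip1-/- trained, and for 13.4%, lower. More than 2-fold differences were seen in 56 genes called higher and 25 called lower. The median difference over all tested genes was 0.01. With every library brought to the same FPKM sum, 679 genes were called and 80.9% of them were higher, against 53.7% as deposited, with a median shift of 0.06 over all genes. With the same sum over nuclear genes the numbers were 615 calls, 75.8% higher and a shift of 0.04. Under either rescaling the medians of the lists of mitochondrially encoded subunits and of atrophy and growth genes, all within 0.05 of 0, changed sign, as did that of fiber-type factors with the same FPKM sum, and the other list medians kept their direction under both. Without labelled strNrip1-/- trained replicate 3 or replicate 2 there were 315 and 333 calls, and without labelled WT trained replicate 1 or replicate 3 there were 385 in each case, while 256 genes were called in all 12 fits that each left out 1 library. These 4 libraries also lowered the counts of most gene groups and are called the influential libraries below.

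The differences followed the GC content of the transcripts. They rose by 0.13 for each 10 points of GC content in trained EDL, against -0.0025 in sedentary EDL. Measured library by library, this slope lay between -0.08 and -0.02 in labelled WT trained and between 0.05 and 0.10 in labelled strNrip1-/- trained, so that the groups did not overlap. Replicates of 1 sedentary group also differed widely, from -0.08 to 0.04 in labelled strNrip1-/- and from -0.05 to 0.01 in labelled WT. Sorted by GC content into 5 bins of equal size, the genes had a median difference of -0.12 in the lowest bin and 0.12 in the highest. In the lowest bin 24 genes were called higher and 160 lower, and in the highest bin 150 were higher and 31 lower. After a smooth trend on GC content and length was removed from each library, 660 genes (5.18%) were called, of which 549 were among the 762, and the lowest bin then held 44 higher and 63 lower genes. The numbers of calls after this removal are given with the groups of genes below, and the part of the GC content trend in the results was not tested further.

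**Figure D1:**
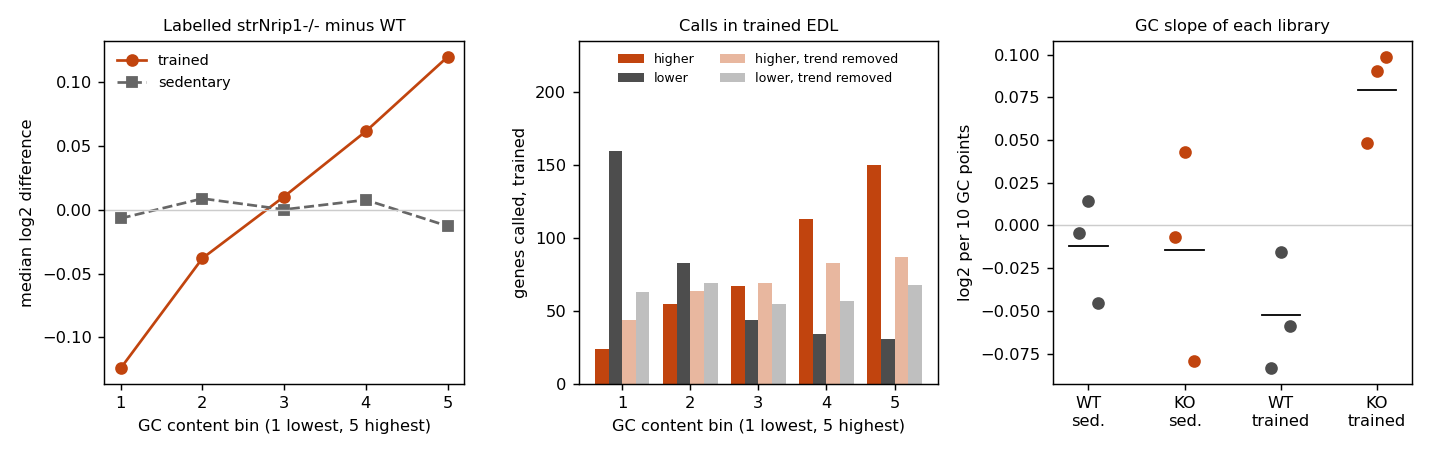
Left, median log2 difference (labelled strNrip1-/- minus labelled WT) of genes in 5 bins of transcript GC content for trained and sedentary EDL; middle, genes called higher and lower in trained EDL in each bin, before and after removal of the trend; right, slope of each library on GC content in log2 units per 10 GC points, with the group mean as a line (KO, labelled strNrip1-/-). The trained medians climb from -0.12 to 0.12 while the sedentary ones stay near 0, and the 3 labelled strNrip1-/- trained libraries lie above the 3 labelled WT trained libraries.

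The largest differences were in genes that the trained libraries labelled WT barely contained. Ptgds, a prostaglandin D synthase, was at 0.27, 0.11 and 0.15 FPKM in the libraries labelled WT and at 13.5, 19.4 and 17.6 FPKM in those labelled strNrip1-/-, a difference of 4.67 ± 0.27 (adjusted p = 6.122e-06). Kcnk1, a leak potassium channel, was at 1.15, 0.88 and 0.53 against 25.6, 38.5 and 24.6 FPKM (4.48 ± 0.23, adjusted p = 2.153e-06). Tmprss13, a membrane-bound serine protease, was at 0.11, 0.11 and 0.06 against 7.07, 5.48 and 6.46 FPKM (3.53 ± 0.12, adjusted p = 9.179e-08). The labelled WT values of Ptgds and Tmprss13 were close to the level of 3 fragments, so the size of these differences depends on the 0.5 added to each value. Beside Nrip1, the other genes among the 10 largest rises were Cabcoco1 (2.51 ± 0.24), BC048679 (2.31 ± 0.27), the peptide transporter family member Slc15a5 (2.15 ± 0.31), the membrane protein Igsf8 (2.11 ± 0.15), Fabp3 (2.01 ± 0.14) and Tmem37, related to calcium channel subunits (1.92 ± 0.17). All of the 10 were called in every fit without 1 library and after removal of the GC content trend.

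The 10 largest falls were of a smaller size. Cyp4f39, of a cytochrome P450 family that hydroxylates fatty acids, was at 13.3, 7.0 and 11 FPKM in the libraries labelled WT and at 1.33, 1.84 and 1.96 FPKM in those labelled strNrip1-/-, a difference of -2.27 ± 0.22 (adjusted p = 3.336e-04). Car3, carbonic anhydrase 3 of muscle and fat, was at 355, 185 and 418 against 74.0, 50.0 and 81.0 FPKM (-2.16 ± 0.38, adjusted p = 0.00823). Slc25a25, a mitochondrial carrier of adenine nucleotides, was at 51.5, 42.9 and 50.4 against 30.6, 10.4 and 8.65 FPKM (-1.73 ± 0.38, adjusted p = 0.0239). Replicate 1 of labelled strNrip1-/- trained lay between the other libraries for Slc25a25, and the call was lost without labelled WT trained replicate 1 or 3 or labelled strNrip1-/- trained replicate 2 or 3, with an adjusted p of at most 0.0986.

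Transporters and a polyamine enzyme were also among the falls. Amd1, the decarboxylase that supplies polyamine synthesis, was at 44.1, 42.9 and 45.5 FPKM in the libraries labelled WT and at 16.7, 19.1 and 12.1 FPKM in those labelled strNrip1-/- (-1.46 ± 0.28, adjusted p = 0.0113; 0.0537 without labelled strNrip1-/- trained replicate 3). Slc38a4, a neutral amino acid transporter, was at 22.2, 16.0 and 15.8 against 7.90, 6.55 and 5.82 FPKM (-1.34 ± 0.18, adjusted p = 0.00192). Slc2a3, a glucose transporter best known from neurons, was at 4.86, 4.92 and 4.12 against 0.56, 1.93 and 1.93 FPKM (-1.47 ± 0.33, adjusted p = 0.0236; up to 0.0734 without any 1 of the labelled WT trained libraries). Their labelled strNrip1-/- libraries were below all labelled WT libraries. The others were Htra4 (-1.91 ± 0.40), Gm2026 (-1.72 ± 0.31), 1700001O22Rik (-1.69 ± 0.16) and Il12a (-1.57 ± 0.38), of which Il12a was called in 3 and Htra4 in 9 of the 12 fits without 1 library.

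**Figure D2:**
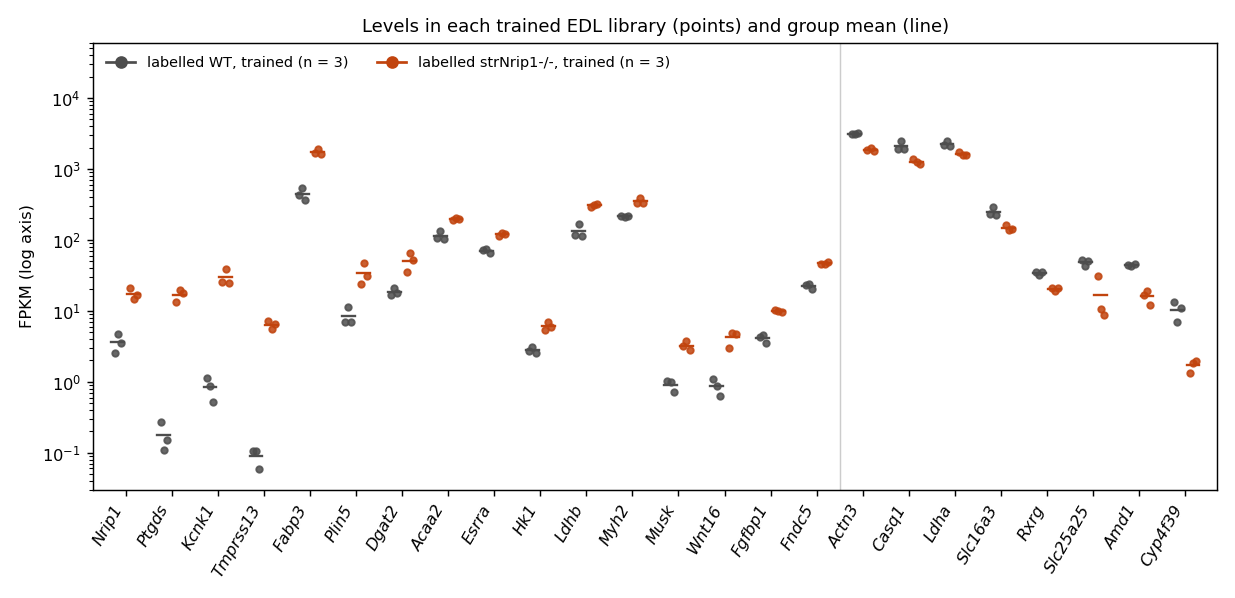
FPKM (log axis) of 24 named genes in each of the 6 trained libraries (points) with the group mean (line); genes called higher in labelled strNrip1-/- trained stand left of the gray line and genes called lower stand right of it. The points of the groups do not overlap for any of the genes, and the labelled WT values of Ptgds and Tmprss13 lie below 0.3 FPKM.

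Genes of mitochondrial fatty acid β-oxidation were higher together. All 20 tested members of the list had a difference above 0, with a median of 0.56, and 15 were called higher and 0 lower. After removal of the GC content trend 15 and 0 were counted, with Acat1 in place of Cpt1b, and 11 of the 15 were called in every fit without 1 library. Acaa2, the thiolase that ends each round of β-oxidation, was at 108, 132 and 104 FPKM in the libraries labelled WT and at 193, 202 and 198 FPKM in those labelled strNrip1-/- (0.79 ± 0.10, adjusted p = 0.00129). Slc25a20, which carries acylcarnitines into mitochondria, was at 52.1, 61.0 and 49.2 against 85, 103 and 87.1 FPKM (0.76 ± 0.10, adjusted p = 0.00215). The entry enzyme Cpt1b differed less, with 129, 138 and 131 against 163, 180 and 162 FPKM (0.34 ± 0.07, adjusted p = 0.0158), and its adjusted p was 0.112 after removal of the GC content trend and 0.0696 without labelled strNrip1-/- trained replicate 2.

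Upstream of mitochondria, 8 of the 21 tested genes of fatty acid uptake and activation were called higher and 1 lower, with a median of 0.39 and the same counts after removal of the GC content trend. Fabp3, the fatty acid-binding protein of heart and muscle, was at 423, 532 and 362 FPKM in the libraries labelled WT and at 1690, 1917 and 1628 FPKM in those labelled strNrip1-/- (2.01 ± 0.14, adjusted p = 3.13e-05). It was the most abundant of the 10 genes with the largest rises. Acot2, a mitochondrial acyl-CoA thioesterase, was at 7.37, 7.67 and 7.67 against 13.7, 23.7 and 11.5 FPKM (0.99 ± 0.23, adjusted p = 0.0277), although reads of the closely similar Acot1 may be divided between both genes. Acsl3, an acyl-CoA synthetase, was the member called lower, at 6.31, 8.13 and 4.83 against 2.71, 3.08 and 3.33 FPKM (-0.94 ± 0.22, adjusted p = 0.0274). Without labelled WT trained replicate 1 or 3 or labelled strNrip1-/- trained replicate 2 the list had 5 higher calls. The calls of Acot2 and Acsl3 held in 8 and 7 of the 12 fits without 1 library.

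Genes of triglyceride storage and breakdown included 7 members called higher and 0 lower of 26 tested, with a median of 0.33, and 6 and 0 after removal of the GC content trend. Leaving out any 1 of the influential libraries gave 3 or 4 higher calls. Plin5, which coats lipid droplets next to mitochondria, was at 7.06, 11.4 and 6.89 FPKM in the libraries labelled WT and at 23.6, 46.8 and 30.8 FPKM in those labelled strNrip1-/- (1.91 ± 0.25, adjusted p = 0.00179). Dgat2, which makes triglyceride, was at 16.5, 21.2 and 18.0 against 35.1, 64.4 and 51.9 FPKM (1.39 ± 0.21, adjusted p = 0.00415). Replicate 2 held the highest value of its group for both genes in both genotypes. A list of known PPAR target genes, whose called members all belong to the lipid lists above, had 8 called higher and 0 lower of 21 tested, and 8 and 0 after removal of the GC content trend. Pdk4, the pyruvate dehydrogenase kinase that PPARs induce, was at 92.2, 234 and 88.7 against 136, 338 and 90.9 FPKM with overlapping groups (0.38 ± 0.50, adjusted p = 0.738).

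**Figure D3:**
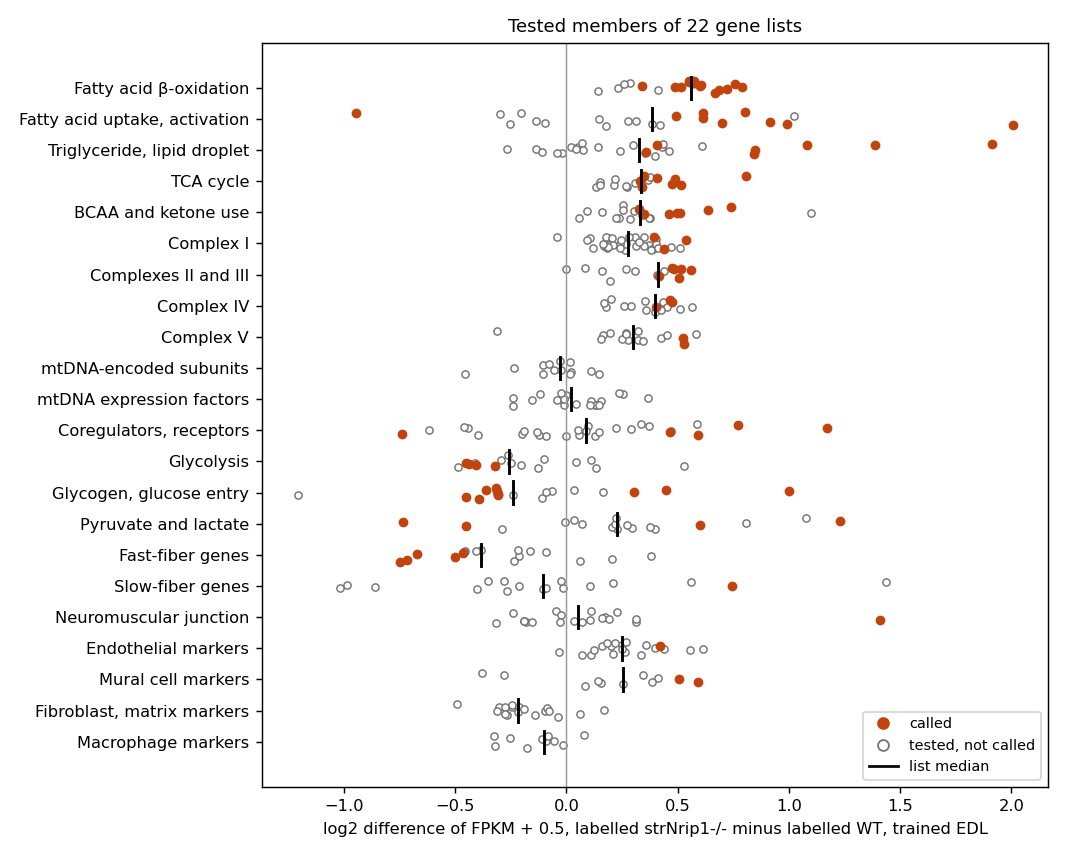
Log2 difference (labelled strNrip1-/- minus labelled WT, trained EDL) of every tested member of 22 gene lists, with called members filled and the list median as a bar. The median is 0.56 for β-oxidation and -0.39 for fast-fiber genes, and no mitochondrially encoded subunit is called.

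In the TCA cycle 8 of 18 tested genes were called higher and 0 lower, with a median of 0.34, and 7 and 0 after removal of the GC content trend. Leaving out any 1 of the trained libraries other than labelled WT trained replicate 2 gave 4 higher calls. Idh2, the mitochondrial NADP-linked isocitrate dehydrogenase, was at 145, 174 and 148 FPKM in the libraries labelled WT and at 259, 276 and 282 FPKM in those labelled strNrip1-/- (0.81 ± 0.14, adjusted p = 0.0070). Sdha, the catalytic subunit shared by the TCA cycle and respiratory complex II, was at 575, 696 and 545 against 807, 892 and 885 FPKM (0.52 ± 0.09, adjusted p = 0.00769). Citrate synthase (Cs), often used as a marker of mitochondrial content and named here after its value was seen, was at 306, 345 and 294 against 354, 335 and 346 FPKM with overlapping groups (0.13 ± 0.07, adjusted p = 0.311).

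Nuclear-encoded subunits of the respiratory chain were mostly higher by a smaller margin. The numbers called higher were 3 of 36 tested in complex I (median 0.27), 6 of 14 in complexes II and III (median 0.41), 3 of 16 in complex IV (median 0.40) and 2 of 16 in complex V (median 0.30), and none was called lower. After removal of the GC content trend these numbers were 4, 5, 4 and 2. Ndufb5 of complex I was at 291, 362 and 277 FPKM in the libraries labelled WT and at 433, 444 and 461 FPKM in those labelled strNrip1-/- (0.54 ± 0.13, adjusted p = 0.0323). Atp5b, the catalytic β subunit of ATP synthase, was at 2090, 2504 and 2024 against 3034, 3225 and 3221 FPKM (0.52 ± 0.09, adjusted p = 0.00799). The highest labelled WT value of Ndufb5 and of Atp5b came from replicate 2. Cyc1 of complex III (0.56 ± 0.14, adjusted p = 0.0358) and Cox6a2, the muscle form of a complex IV subunit (0.47 ± 0.12, adjusted p = 0.0426), were called in 4 of the 12 fits without 1 library, and Ndufb5 in 7. No called member of complexes I and IV was called in all 12 of these fits. The number called without 1 library ran from 0 to 7 for complex I, from 2 to 7 for complexes II and III, from 0 to 6 for complex IV and from 2 to 4 for complex V. It was 0 for complexes I and IV without labelled WT trained replicate 1 or 3 or labelled strNrip1-/- trained replicate 3, and 2 for complexes II and III without any 1 of the influential libraries. For complex IV it was also 0 without labelled WT sedentary replicate 1 or 3 or labelled strNrip1-/- trained replicate 1 or 2. For complexes II and III it was also 2 without labelled WT sedentary replicate 3 or replicate 1 of labelled strNrip1-/- sedentary or trained.

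The 13 subunits encoded by mitochondrial DNA were listed apart from the nuclear ones. By limma none was called and 0 had an unadjusted p under 0.05, against 21.1% of all tested genes. Of the 13 subunits 5 lay above and 8 below 0, and the median was -0.03, from -0.45 for mt-Nd3 to 0.15 for mt-Co1. Both genes were named after their values were seen. The sign of this median was not stable, with 0.04 at the same FPKM sum, 0.11 after removal of the GC content trend, which left 0 calls, and 0.04 and 0.01 without replicate 2 of labelled WT or of labelled strNrip1-/- trained. In sedentary EDL the median of these 13 genes was 0.41, also without a call. The trained minus the sedentary difference had a median of -0.43 over them. By limma 8 of the 13 had an unadjusted p under 0.05 for it, against 7.76% of all tested genes, but none passed the correction (lowest adjusted p = 0.579). Of 20 tested genes for the replication and transcription of mitochondrial DNA limma called none (median 0.02), nor after removal of the GC content trend, with 5 at an unadjusted p under 0.05, and Tfam, named here after its value was seen, was at 23.0, 23.9 and 23.0 FPKM in the libraries labelled WT and 20.7, 25.4 and 23.4 FPKM in labelled strNrip1-/- trained.

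The sequence around the start sites of these genes was examined in RefSeq promoter windows (GRCm38.p6, 250 bases before to 50 after the start), which covered 94 of 116 genes of the β-oxidation, TCA cycle and nuclear respiratory chain lists and 9627 of the tested genes. Both strands were searched for CGCANGCGC, the element of NRF1, a factor known for respiratory chain promoters. It was found in 32.7% of the 104 windows of those lists, in 12.8% of the 12349 windows of tested genes, in 10.8% of the windows of genes called higher and in 10.5% of those called lower. The element of ETS factors such as GABP, CCGGAAGT, was found in 7.69%, 7.67%, 5.42% and 7.73%. The element of estrogen-related receptors, TNAAGGTCA, was found in 2.88%, 0.785%, 0.246% and 0.829%. For estrogen-related receptors the genes called higher had a match in 1 window. The direct repeat 1 element, bound by PPARs, was found in 1 of the 406 windows of genes called higher, 0 of the 362 windows of genes called lower and 3 of the 12349 windows of tested genes. The elements were not fixed beforehand. Match counts had been seen when the estrogen-related receptor element was widened from TCAAGGTCA, found in 1.92%, 0.275%, 0.246% and 0% of the same windows, when the NRF1 and ETS elements were added, and when a longer form of the NRF1 element was shortened. The shares are therefore a description only, and a match is no proof of binding. Members of the β-oxidation, TCA cycle and respiratory chain lists that were called higher had 34 windows. Of these, 23.5% held the NRF1 element, 11.8% the ETS element and 0% the estrogen-related receptor element TNAAGGTCA. The called gene Sdha is shown because its window held 3 copies of the NRF1 element, and Slc25a20 because it held the ETS element. Each line gives the match in capitals on the strand of the gene, with 10 flanking bases on either side.
Sdha, chr13:74350319-74350347, minus strand: gtttacagggCGCAGGCGCaccaccactc
Sdha, chr13:74350276-74350304, minus strand: gggcgtgttgCGCAGGCGCagaatcttcc
Sdha, chr13:74350231-74350259, minus strand: cgactcggtgCGCAAGCGCagtctgtcgc
Slc25a20, chr9:108662047-108662074, plus strand: aggagggcagCCGGAAGTagacttcagg

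Among 27 tested coregulators, nuclear receptors and their partners, 4 were called higher and 1 lower, with the same counts after removal of the GC content trend. The higher calls were 1 or 2 without any 1 of the influential libraries, and the lower calls were 3 without labelled strNrip1-/- trained replicate 1. Esrra, estrogen-related receptor α, was at 70.9, 74.5 and 65.1 FPKM in the libraries labelled WT and at 114, 126 and 120 FPKM in those labelled strNrip1-/- (0.77 ± 0.07, adjusted p = 1.723e-04). Ppargc1b, which encodes the coactivator PGC-1β, was at 2.73, 2.10 and 4.6 against 5.43, 8.68 and 8.50 FPKM (1.17 ± 0.28, adjusted p = 0.0341), and was called in 6 of the 12 fits without 1 library. Ppargc1a, for PGC-1α, was at 5.03, 6.75 and 4.75 against 4.4, 3.90 and 3.78 FPKM, so that its labelled strNrip1-/- libraries were the lower ones, but it was not called (-0.40 ± 0.12, adjusted p = 0.0898). Rxrg, a retinoid X receptor and partner of PPARs, was called lower at 35.4, 32.3 and 35.7 against 21.1, 19.1 and 21.1 FPKM (-0.74 ± 0.10, adjusted p = 0.00175).

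Genes of glycolysis and glycogen were lower more often than higher. Of 16 tested glycolysis genes 0 were called higher and 4 lower, with a median of -0.26, and 0 and 6 after removal of the GC content trend. These counts hold for the list only. The enolase gene Eno1, outside all lists and named after its value was seen, was called higher (0.55, adjusted p = 0.0196). Its adjusted p was 0.0262 after removal of the GC content trend. The hexokinase Hk1, also higher, is counted with glucose entry below. Ldha, Ldhb and Slc16a3 belong to a list of pyruvate and lactate fate, with 2 called higher and 2 lower of 18 tested. Its median was 0.23 and 14 members lay above 0, so the lower calls went against most of it. After removal of the GC content trend 2 were higher and 3 lower, and without 1 library the lower calls ran from 0 to 2. Ldha, the lactate dehydrogenase subunit of glycolytic muscle, was at 2182, 2449 and 2067 FPKM in the libraries labelled WT and at 1756, 1555 and 1583 FPKM in those labelled strNrip1-/- (-0.45 ± 0.10, adjusted p = 0.0287). Ldhb, the subunit of oxidative muscle and heart, was at 117, 167 and 113 against 293, 305 and 321 FPKM (1.23 ± 0.18, adjusted p = 0.00295). Slc16a3, the lactate exporter MCT4 of glycolytic fibers, was at 233, 287 and 225 against 163, 138 and 144 FPKM (-0.74 ± 0.14, adjusted p = 0.0114). None of the 4 glycolysis calls held in all 12 fits without 1 library, with adjusted p-values up to 0.167, and their number was 0 without labelled WT trained replicate 1 or 2 or labelled strNrip1-/- trained replicate 2 or 3, when that of Ldha was lost too.

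Of 17 tested genes of glycogen metabolism and glucose entry, 3 were called higher and 7 lower, with a median of -0.24. After removal of the GC content trend 2 were called higher and 3 lower. The lower calls fell to 1 without labelled strNrip1-/- trained replicate 2 or 3, to 2 or 3 without any 1 labelled WT trained library and to 4 without labelled WT sedentary replicate 3, and 3 of the 10 calls held in all 12 fits without 1 library. Hk1, the hexokinase typical of oxidative tissue, was at 2.72, 3.10 and 2.58 FPKM in the libraries labelled WT and at 5.44, 7.02 and 5.92 FPKM in those labelled strNrip1-/- (1.002 ± 0.12, adjusted p = 0.00121). Gbe1, the glycogen-branching enzyme, was also higher (0.45 ± 0.10, adjusted p = 0.0288). Ugp2, which makes UDP-glucose, was at 272, 282 and 246 against 230, 174 and 183 FPKM (-0.45 ± 0.11, adjusted p = 0.0344), and Ppp1r3a, which targets a phosphatase to glycogen, had a difference of -0.39 ± 0.07 (adjusted p = 0.0109). Both lost the call after removal of the GC content trend, with adjusted p-values of 0.0931 and 0.0755. Gbe1 was called in 8, Ugp2 in 5 and Ppp1r3a in 10 of the 12 fits without 1 library.

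Genes for the breakdown of branched-chain amino acids and ketone bodies were higher, with 7 called higher and 0 lower of 20 tested, all 20 above 0 and a median of 0.33, and 9 and 0 after removal of the GC content trend. Without any 1 of the influential libraries 2 or 3 were called higher, and 2 of the 7 calls held in all 12 fits without 1 library. Bckdha, of the rate-limiting branched-chain dehydrogenase complex, was at 69.3, 73.0 and 65.2 FPKM in the libraries labelled WT and at 109, 123 and 116 FPKM in those labelled strNrip1-/- (0.74 ± 0.09, adjusted p = 0.00140). Pccb, a subunit of propionyl-CoA carboxylase, had a difference of 0.64 ± 0.12 (adjusted p = 0.0118) and was called in 9 of these fits. Of 21 tested antioxidant genes 4 were called higher and 1 lower, and 3 and 1 after removal of the GC content trend, while 1 or 2 were called higher without any 1 of the influential libraries. Catalase (Cat) was at 34.6, 29.6 and 35.7 against 51.1, 70.6 and 54.7 FPKM (0.80 ± 0.14, adjusted p = 0.0074), and Gpx3, the secreted glutathione peroxidase, was lower (-0.59 ± 0.15, adjusted p = 0.0486) but was called in 2 of the 12 fits, with an adjusted p of up to 0.162.

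Nnt, the mitochondrial transhydrogenase that supplies NADPH, was at 5.43, 10.6 and 9.23 FPKM in the libraries labelled WT and at 16.0, 17.6 and 18.4 FPKM in those labelled strNrip1-/- (1.05 ± 0.20, adjusted p = 0.0125). C57BL/6J mice carry a deletion in this gene that C57BL/6N mice lack. The annotation holds a second entry of the same symbol over the same place, which took 3.38 FPKM in labelled WT trained replicate 1 and 0 in the other 5 trained libraries. Of 4 tested genes known to differ between these substrains Nnt was the single one called, also after removal of the GC content trend, and its call was lost without labelled strNrip1-/- trained replicate 2 or 3. Substrain and labelled genotype cannot be told apart for it.

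Fiber-type genes separated into structural genes of fast fibers and the rest. In bulk muscle, fewer fibers of a type and less RNA per fiber cannot be told apart. Of 17 tested genes typical of fast glycolytic fibers, 0 were called higher and 5 lower, with a median of -0.39, and 0 and 7 after removal of the GC content trend. Leaving out labelled strNrip1-/- trained replicate 2 or 3 left 3 lower calls. Actn3, the α-actinin of fast fibers, was at 3063, 3076 and 3213 FPKM in the libraries labelled WT and at 1832, 1962 and 1769 FPKM in those labelled strNrip1-/- (-0.75 ± 0.08, adjusted p = 8.168e-04). Casq1, the calcium store protein of fast fibers, was at 1911, 2446 and 1924 against 1387, 1237 and 1180 FPKM (-0.72 ± 0.11, adjusted p = 0.00377). Actn2, the α-actinin present in all fibers and listed with the slow genes, was higher at 345, 382 and 269 against 543, 561 and 545 FPKM (0.74 ± 0.13, adjusted p = 0.00966).

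Myosin heavy chains, whose FPKM are per length and can be set side by side, kept the order Myh4, Myh1, Myh2 and Myh7 in the group means of both genotypes. Myh4, of the fastest IIb fibers, was at 10749, 10101 and 10783 FPKM in the libraries labelled WT and at 8384, 8893 and 7045 FPKM in those labelled strNrip1-/-. Its groups did not overlap, but it was not called (-0.39 ± 0.13, adjusted p = 0.101; 0.0379 after removal of the GC content trend). Myh1, of IIx fibers, was at 2009, 1911 and 1361 against 1906, 2250 and 2700 FPKM with overlapping groups (0.38 ± 0.18, adjusted p = 0.243). Myh2, of oxidative IIa fibers, was at 217, 209 and 217 against 330, 393 and 332 FPKM (0.71 ± 0.13, adjusted p = 0.0109; 0.0520 without labelled strNrip1-/- trained replicate 2), and it was the myosin called among 9 tested, where removal of the GC content trend gave 1 higher and 1 lower call. In sedentary EDL the difference of Myh2 was 0.01 (adjusted p = 0.976), and the interaction had an unadjusted limma p of 0.00336 that did not pass the correction.

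Of 17 tested slow-fiber genes 1 was called higher (Actn2) and 0 lower, also after removal of the GC content trend. Their median of -0.10 rested on 1 library and became 0.25 without labelled WT trained replicate 2. Myh7 was at 2.81, 50.0 and 1.14 FPKM in the libraries labelled WT and at 1.46, 5.74 and 2.38 FPKM in those labelled strNrip1-/-, and its difference of -0.98 ± 1.37 (adjusted p = 0.752) became 0.50 without labelled WT trained replicate 2. The troponins Tnnc1 (11.1, 104 and 8.95 against 12.3, 11.3 and 12.2 FPKM) and Tnni1 (4.38, 30.3 and 2.89 against 2.80, 4.47 and 3.24 FPKM), named after their values were seen, were highest in the same library. Of 21 tested transcription factors of fiber type 3 were called lower, among them Mafa (-0.48 ± 0.12, adjusted p = 0.0459) and Eya4 (-0.41 ± 0.10, adjusted p = 0.0322), both factors of fast fibers, and after removal of the GC content trend 1 was. None of the 3 calls held in all 12 fits without 1 library, with Mafa called in 2 and Eya4 in 7 of them, and the number was 0 without labelled WT trained replicate 1 or labelled strNrip1-/- trained replicate 2 or 3 and 1 without labelled WT trained replicate 3 or labelled strNrip1-/- trained replicate 1.

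Myoglobin (Mb), the oxygen-binding protein of muscle, was at 2855, 3448 and 2454 FPKM in the libraries labelled WT and at 5218, 4355 and 5168 FPKM in those labelled strNrip1-/- (0.76 ± 0.19, adjusted p = 0.0390), and was called in 5 of the 12 fits without 1 library. Egln1, an oxygen-sensing hydroxylase, was at 86.7, 79.1 and 78.1 against 114, 116 and 116 FPKM (0.50 ± 0.06, adjusted p = 0.00111). These were the 2 called of 9 tested genes of the hypoxia response and oxygen binding. After removal of the GC content trend 2 were called higher and 2 lower, the added ones being Egln2 and Hif1an, hydroxylases that act on hypoxia-inducible factors and are named after their values were seen (adjusted p = 0.351 and 0.0999 before and 0.0212 and 0.0404 after the removal). Egln1 was called in every fit without 1 library.

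Genes of vessels were examined next. Fgfbp1, which releases fibroblast growth factors from the matrix, was at 4.23, 4.51 and 3.57 FPKM in the libraries labelled WT and at 10.3, 9.996 and 9.64 FPKM in those labelled strNrip1-/- (1.19 ± 0.13, adjusted p = 7.522e-04). It belongs, with Tie1, Egln1 and Atp5b, to 7 angiogenesis genes that the study picked on these same libraries. Of these 7 genes 4 were called higher, and 5 after removal of the GC content trend, so that neither their count nor a single call among them is independent evidence. Of 20 markers of endothelium, a cell type in which the muscle creatine kinase promoter is not active, 1 was called higher, Tie1 (10.3, 10.9 and 9.19 against 13.2, 13.4 and 14.5 FPKM, 0.42 ± 0.08, adjusted p = 0.0125), also after removal of the GC content trend. Tie1 lost the call without labelled WT trained replicate 3 or labelled strNrip1-/- trained replicate 3, and 3 and 2 markers were called without labelled WT trained replicate 2 and labelled strNrip1-/- trained replicate 1. The median of the endothelial list was 0.25, 19 of its 20 members lay above 0, and their summed level was 219 to 254 FPKM in labelled WT trained and 273 to 286 FPKM in labelled strNrip1-/- trained. Libraries did not overlap for 10 of the 20, all higher, against 13.9% of the tested genes. The mural cell genes Pdgfrb (0.51 ± 0.08, adjusted p = 0.00539) and Kcnj8 (0.59 ± 0.12, adjusted p = 0.0167), of pericytes and vascular smooth muscle, were called higher of 11 tested, also after removal of the GC content trend, and Kcnj8 lost the call without any 1 of the influential libraries. Of the 11 mural genes 9 lay above and 2 below 0, with a median of 0.25 and a lowest value of -0.38. Without labelled strNrip1-/- sedentary replicate 2 or 3, 1 of them was called lower. The part of cell content in the differences of endothelial and mural genes was not tested.

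At the neuromuscular junction, Musk, the receptor kinase that organizes the postsynaptic membrane, was at 1.02, 1.01 and 0.71 FPKM in the libraries labelled WT and at 3.16, 3.73 and 2.84 FPKM in those labelled strNrip1-/- (1.41 ± 0.17, adjusted p = 0.00126). It was the single gene called among 20 tested junction genes, whose median was 0.05 (-0.013 after removal of the GC content trend), and the acetylcholine receptor subunit Chrna1, named after its value was seen, had a difference of 0.17 ± 0.11 (adjusted p = 0.426). Musk is also 1 of the 8 junction genes that the study picked on these libraries. Of these 8 genes 6 were tested and 4 called higher, Musk included, which is not independent evidence. Among them Unc13c, a synaptic vesicle priming protein, was at 0.19, 0.15 and 0.17 against 2.05, 1.71 and 1.64 FPKM (1.78 ± 0.18, adjusted p = 3.336e-04), and Wnt16, a secreted Wnt ligand, was at 1.09, 0.88 and 0.63 against 2.99, 4.89 and 4.78 FPKM (1.78 ± 0.21, adjusted p = 0.00117). Musk, Unc13c and Wnt16 were called in every fit without 1 library and after removal of the GC content trend.

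Among secreted factors of muscle, Fndc5, the precursor of irisin, was at 22.8, 23.7 and 20.1 FPKM in the libraries labelled WT and at 45.8, 46.1 and 48.5 FPKM in those labelled strNrip1-/- (1.06 ± 0.08, adjusted p = 3.716e-05). It was the member called of 13 tested, also after removal of the GC content trend. Of 24 heat shock and chaperone genes 0 were called higher and 2 lower, Hspb8 (-0.45 ± 0.08, adjusted p = 0.0101) and Hsp90b1 (-0.36 ± 0.08, adjusted p = 0.0208), and both calls were lost without labelled strNrip1-/- trained replicate 3. Hsp90b1 also lost the call without labelled WT trained replicate 1 or 3 or labelled strNrip1-/- trained replicate 2. After removal of the GC content trend 1 was called higher and 3 lower. Of 18 genes of mitochondrial dynamics and uncoupling, the fusion gene Mfn1 was higher (0.39 ± 0.06, adjusted p = 0.00466) and the mitophagy receptor Fundc1 lower (-0.32 ± 0.07, adjusted p = 0.0274). The call of Mfn1 held in all 12 fits without 1 library, while Fundc1 was called in 8 of them and lost the call after removal of the GC content trend (adjusted p = 0.0927).

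Several groups showed no call by limma in trained EDL, nor after removal of the GC content trend. These were 18 clock genes, 19 glucocorticoid-response genes, 22 genes of atrophy and growth and 12 myogenic genes, with medians between -0.11 and -0.01 and with 4, 2, 4 and 2 members at an unadjusted p under 0.05. Of all tested genes 21.1% had an unadjusted limma p under 0.05. The median of the glucocorticoid list changed from -0.09 to 0.07 without labelled WT trained replicate 2. Markers of macrophages (10 tested), Schwann cells (11), fibroblasts and matrix (18) and blood (5) had no called member either, with medians of -0.10, 0.23, -0.22 and 0.43 and with 0, 1, 2 and 1 members at an unadjusted p under 0.05. The summed blood genes lay at 723 to 863 FPKM in the libraries labelled WT and at 808 to 1444 FPKM in those labelled strNrip1-/-. Of 13 adipocyte markers the one called was Car3, which was lower and which muscle also expresses. It went against most of its list, which had a median of 0.23 and 11 members above 0. Of 10 tendon markers, with a median of -0.16 and 7 below 0, the one called was Kera, a matrix proteoglycan. It was lower (13.6, 12.2 and 11.8 against 8.06, 7.58 and 7.67 FPKM, -0.66 ± 0.12, adjusted p = 0.00982). The calls of Car3 and Kera held after removal of the GC content trend.

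The trained differences were then set beside those in sedentary EDL, where the same thresholds gave 447 calls (3.51%), 245 of them higher (1.92%) and 202 lower (1.59%) in labelled strNrip1-/-. The balance of directions turned with the scaling. Of the sedentary calls 54.8% were higher as deposited, against 18.6% of 652 with the same FPKM sum, where the median of all genes moved to -0.14, and 82.7% of 480 with the same nuclear sum, where it moved to 0.07. The 269 genes called in both had the same direction, and made up 35.3% of the trained and 60.2% of the sedentary calls. Of the 409 genes called higher in trained EDL 381 were also above 0 in sedentary EDL, with a median of 0.55 in trained and 0.38 in sedentary EDL. Of the 353 genes called lower 325 were also below 0, with medians of -0.46 and -0.26. Since these genes were chosen by their trained values, the smaller sedentary medians are a description only. The medians of β-oxidation (0.49 in sedentary EDL), fast-fiber genes (-0.35) and glycolysis (-0.28) lay close to the trained ones as deposited. Other lists lay further apart, among them mitochondrially encoded subunits (-0.03 in trained and 0.41 in sedentary EDL) and Schwann cell markers (0.23 and -0.35).

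No gene passed the test of the interaction, that is, of the trained minus the sedentary difference. With limma the lowest adjusted p was 0.335, while 989 genes (7.76%) had an unadjusted p under 0.05, and 204 of the 762 trained calls were among them. The named genes among them included Esrra (difference of 0.77 in trained and 0.47 in sedentary EDL), Gm2026 (-1.72 and 0.11), 1700001O22Rik (-1.69 and -0.61), Kera (-0.66 and 0.30), Slc38a4 (-1.34 and -0.57), Amd1 (-1.46 and -0.30) and Slc25a25 (-1.73 and -0.29). A difference between trained and sedentary EDL was therefore not established for any named gene. The 762 genes were chosen by their trained differences, which are part of the interaction. The count of 204 and the named genes listed here are therefore a description only. Fabp3, Kcnk1, Musk and Nrip1 had nearly equal differences in both, with interaction values from 0.01 to 0.06.

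**Figure D4:**
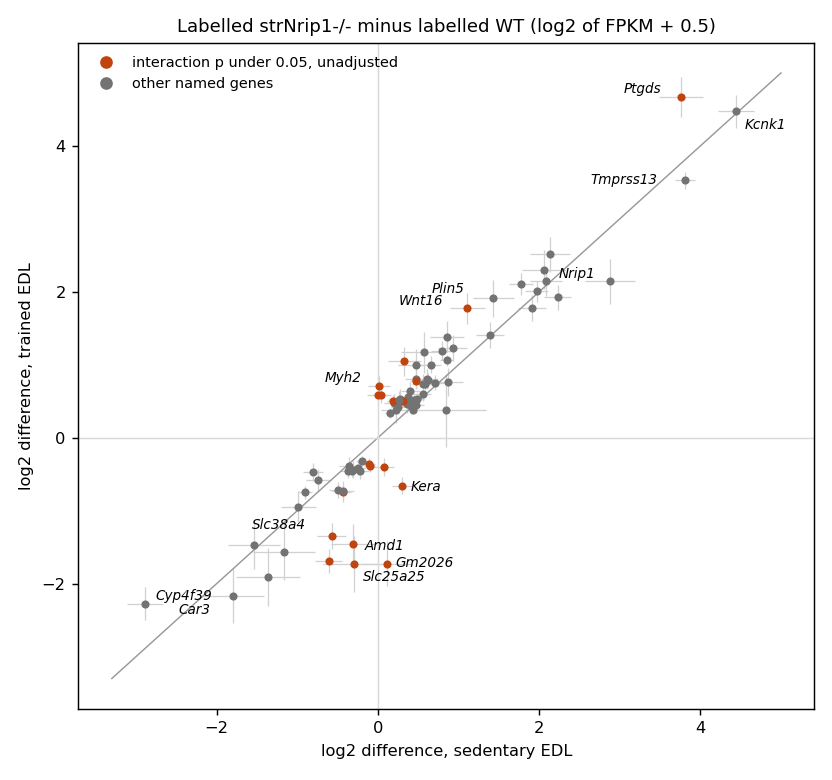
Log2 difference (labelled strNrip1-/- minus labelled WT) of the named genes except Myh7 in trained EDL (vertical) against sedentary EDL (horizontal), with bars for the SE and the line of equal differences; filled orange points had an unadjusted interaction p under 0.05. Kcnk1 and Nrip1 lie on the line, Slc25a25, Amd1, Gm2026 and Kera lie below it and Myh2 above it, and no gene passed the corrected interaction test.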

How the data were processed

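The RNA-seq series holds 12 EDL libraries in 4 groups of 3, grouped and numbered by the sample labels. Libraries were made with a NEBNext Ultra RNA kit. Whether strand was used in counting is not given in the sources used here, so reads of a gene and of an antisense partner may count together. Per the study's methods, the authors ran Salmon 1.10.2 against mm10, tximport for gene sums and DESeq2 1.44.0 for their tests. For 17752 genes the authors deposited FPKM values. How the FPKM was made is not given in the sources used here. The deposited log2 fold changes and adjusted p-values of 4 comparisons, computed by the authors, were not used.

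Count models were left out because FPKM values are normalized. The filter kept genes whose mean reached 0.5 FPKM in the 12 libraries, values were transformed to log2(FPKM + 0.5), and 4 group means were fitted to all 12 libraries with limma 3.58.1 in R 4.3.3 (mean-dependent variance prior, two-sided tests, Benjamini-Hochberg correction). For genes near the pseudocount this scale compresses the fold change. Thresholds were those of the study, and the interaction used the adjusted p alone. The fitting code was tested on simulated data with known changes.

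Gene identifiers were matched to GENCODE M21 (GRCm38) for 17745 genes, which gave coordinates, transcript lengths and GC content. Where 2 entries shared a symbol, the one with the higher mean was named. Depth was estimated from low FPKM values of 1613 genes with a single transcript over 1500 nt, of which 99.1% to 99.6% were whole fragments to within 0.15, where 30% would be by chance. Depth ran from 20.2 M to 29.5 M fragments, and these limits cover counting error only. No replicates shared identical values, and every pair differed beyond sampling noise.

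Genes were named by a rule: the 10 largest rises and falls among called protein-coding genes, the 2 largest called rises and falls of each of 42 gene lists, and 13 fixed genes. Members of the lists and the comparison itself were chosen with earlier results of these data known. Promoter sequences came from RefSeq, and the motifs searched were revised after match counts had been seen. Alternatives were the pseudocount (0.1 or 1), the filter (none, or a mean of 5 FPKM), quantile normalization, a common sum over all or over nuclear genes, removal of a trend on GC content and transcript length, the variance prior without trend, the 6 libraries of a contrast alone, the replicate number as a block and leaving out each library.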

Additional observations from a re-analysis of the deposited data

Results flagged for a closer look

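The list of immediate early genes, which neurons and muscle induce within minutes of stimulation, lay on opposite sides in trained and sedentary EDL. Averaged over its 15 tested members, every labelled strNrip1-/- trained library was above every labelled WT trained library, and in sedentary EDL every labelled strNrip1-/- library was below every labelled WT library. The sums of their FPKM did overlap in trained EDL, at 212 to 219 in labelled WT and 181 to 225 in labelled strNrip1-/-, where 8 members lay above and 7 below 0 with a median of 0.04. The median over its members of the trained minus the sedentary log2 difference was 0.248. Other lists had medians of this kind that were larger in size, so such a shift was not particular to immediate early genes. Among them were Schwann cell markers (0.475), mitochondrially encoded subunits (-0.43) and markers of tendon (-0.40), adipocytes (-0.38) and fibroblasts and matrix (-0.29). The difference was not tested for the immediate early list, and with limma none of its members passed the corrected interaction test. In trained EDL 2 members were called higher, Ier3 (0.59 ± 0.13, limma adjusted p = 0.0264) and Junb (0.51 ± 0.12, adjusted p = 0.0337), and after removal of the GC content trend 1 was, with Junb at an adjusted p of 0.255. Ier3 was called in 8 and Junb in 6 of the 12 fits without 1 library, and neither without labelled WT trained replicate 1 or 3 or labelled strNrip1-/- trained replicate 2.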

How the results depend on the processing

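Nrip1 was higher in labelled strNrip1-/- trained, past the threshold, under all 23 alternatives, with a log2 difference of 1.94 to 2.34 when 1 library was left out. With the 6 trained libraries fitted alone 445 genes were called, 262 higher and 183 lower, and with the 6 sedentary libraries alone 166. The lower calls numbered 130 with the same FPKM sum and 149 with the same nuclear sum, since both rescalings shift all genes upward. Without 1 library the trained calls ranged from 315 to 874, the higher calls from 188 to 473, the lower calls from 126 to 401, the sedentary calls from 163 to 478 and the interaction calls from 0 to 1, the 1 without labelled WT trained replicate 3. The trained calls fell by more than 1.5 times without labelled WT trained replicate 1 or 3 or labelled strNrip1-/- trained replicate 2 or 3. The sedentary calls did so without any of the labelled WT sedentary libraries (163, 222 and 216) or without labelled strNrip1-/- sedentary replicate 1 (260). The GC content slope was 0.0962 without the filter on low values, 0 after removal of the trend, by construction, and 0.12 to 0.15 without 1 library. Myh7 ranged from -1.98 to 0.50 without 1 library and changed sign without labelled WT trained replicate 2, and Pdk4 ranged from -0.16 to 0.83 and changed sign without labelled strNrip1-/- trained replicate 2. Of 42 list medians 8 changed sign under at least 1 alternative. These were myosin heavy chains (-0.0016 with a mean of at least 5 FPKM), junction genes (-0.013 after removal of the GC content trend), fiber-type factors (0.020 with the same FPKM sum), mitochondrially encoded subunits (up to 0.11, after removal of the GC content trend), and, without 1 library, slow-fiber genes (0.25), glucocorticoid-response genes (0.07), secreted factors (from 0.06 to -0.09 at the lowest) and atrophy and growth genes (from -0.01 to 0.05 at the highest). The cause was not tested. Of the results for named genes, 239 were no longer past the threshold, 1 newly passed it and 1607 kept their direction and their side of it.

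Whether the replicate numbers pair the libraries is not known, and correlations with 3 libraries in a group cannot decide it. The correlation of same-numbered libraries around their group means was -0.05, -0.05 and -0.01 in trained and -0.01, 0.16 and 0.11 in sedentary EDL. For differently numbered libraries it ran from -0.02 to 0.07 in trained and from -0.18 to 0.07 in sedentary EDL. With the replicate number as a block, 756 trained genes (426 higher and 330 lower), 441 sedentary genes and 0 interactions were called. Depth limits low genes, since values under 0.0743 FPKM on a 2 kb gene rest on fewer than 3 fragments in the shallowest library.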

Other observations

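Genes that respond to fasting and circulating fatty acids varied between libraries of the same trained group. Pdk4 was at 234 FPKM in labelled WT trained replicate 2 and 338 FPKM in labelled strNrip1-/- trained replicate 2, against 88.7 to 136 FPKM in the other 4 trained libraries. Ucp3, a mitochondrial uncoupling protein of muscle, was at 161 and 134 FPKM in the same libraries, against 54.4 to 84.9 FPKM in the others. Both genes were singled out after their values were seen. The correlation of same-numbered libraries over all genes, given above, was not positive in trained EDL but cannot decide whether the numbers pair the libraries.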
